A study of Oncorhynchus mykiss with 15 samples.

Results

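The GADD45 genes of rainbow trout liver were followed across 15 RNA-seq libraries in 5 groups of 3, labelled N, H3h, H12h, H24h and R3h. Every gene of the deposited table whose name was GADD45A, GADD45B, GADD45G or Gadd45gip1, with any copy suffix, was taken, which gave 10 of 34965 genes. These were 4 copies named GADD45A, 2 named GADD45B, 2 named GADD45G and 2 named Gadd45gip1. The fish were 150 days old, the tissue was liver, and the series concerns hypoxia lasting different times. The letters are not spelled out, but the labels give a time of 3, 12 or 24 h for the H groups, of 3 h for the R group and none for N. No N group was matched to each time, so an effect of the H or R condition cannot be told apart from one of elapsed time or time of day. Whether each library is from its own fish is not stated, and p-values therefore reflect only how much these samples vary.

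GADD45 proteins are small, acidic, mostly nuclear stress sensors that are made in bursts when a cell meets DNA damage, growth arrest signals or metabolic stress. In mammals they bind the kinase MAP3K4 and switch on the p38 and JNK branches of MAP kinase signalling, and they bind CDK1 with cyclin B, PCNA and parts of the DNA repair and demethylation machinery. GADD45A is a classical target of p53 and FOXO factors, while GADD45B was found as an early gene of cytokine signalling and of regenerating mouse liver. Gadd45gip1 is no sequence relative of the others: it was named for binding them, and in mammals its protein sits in the large subunit of the mitochondrial ribosome. Salmonids underwent a whole-genome duplication, and many trout genes exist as pairs of copies.

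The copies lay on separate chromosomes or far apart, in the coordinates of the deposited table, whose genome build is not given in the sources used here. GADD45A 110508939 stood on chromosome 28 (30673988 to 30676737, plus strand), GADD45A 110524616 on chromosome 5 (73734015 to 73737115, minus), GADD45A 110530106 on chromosome 8 (48557424 to 48560041, minus) and GADD45A 110521726 on chromosome 4 (28887186 to 28891578, minus). GADD45B 110524120 stood on chromosome 5 (53862758 to 53864772, minus) and GADD45B 100301708 on chromosome 1 (12239596 to 12241551, minus). GADD45G 110525971 stood on chromosome 6 (37923728 to 37925472, minus) and GADD45G 110536341 on chromosome 11 (66866931 to 66868744, plus). Gadd45gip1 110486476 stood on chromosome 13 (40648521 to 40649771, plus) and Gadd45gip1 110538313 on chromosome 12 (71016057 to 71017306, minus). These spans cover whole genes with their introns. RefSeq's table of assembly USDA_OmykA_1.1, used for names only, held all 10 identifiers and named 110524616 gadd45ab, 110525971 gadd45ga and 100301708 ga45b. Near-identical copies can share reads, so the value of a single copy is less certain than that of all copies of a name together.

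The libraries held 45.4 to 70.4 M (mega) counts. Genes with a mean FPKM (fragments per unit of gene length and of library size, computed by the authors) of at least 0.5 were tested, 17502 in all, and 9 of the 10 GADD45 genes were among them. GADD45A 110521726, with a mean of 0.269 FPKM and 16 to 115 counts per library, was not. A gene was called at an adjusted p under 0.05 in edgeR's quasi-likelihood test. Hepatocyte markers were strong in every library, with 17 of 18 above 0 throughout and a summed level of 22400 to 64200 FPKM. R3h replicate 3 stood apart, with a mean correlation of 0.803 with its own group and 0.805 with H24h. N replicate 2 and H12h replicate 3 correlated more with H24h (0.918 and 0.913) than with their own group (0.89 and 0.906). So did R3h replicates 1 and 2 (0.94 and 0.933 with H24h, against 0.883 and 0.862 with their own group). Some results that rest on R3h replicate 3, H12h replicate 3 or N replicate 2 are given with and without that library. In whole liver, fewer cells of a type and less RNA per cell cannot be told apart.

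The GADD45B and GADD45G copies made up most of the GADD45 RNA, and the total differed widely between libraries of the same group. Summed over the 8 copies of A, B and G, the level was 129, 16.4 and 64.9 FPKM in N, 181, 132 and 147 FPKM in H3h, 221, 211 and 13 FPKM in H12h, 16.2, 12.8 and 32.9 FPKM in H24h and 64.7, 136 and 270 FPKM in R3h. Every H24h library lay below every H3h and every R3h library, while N and H12h each held both high and low libraries. GADD45B 110524120 supplied 48.2 ± 18.2% of the sum for N, 55.6 ± 2.18% for H3h, 44.9 ± 5.21% for H12h, 31 ± 21.2% for H24h and 53.1 ± 23.9% for R3h (SD, n = 3 each). GADD45G 110525971 supplied 34.2 ± 6.75%, 33.1 ± 6.74%, 25.1 ± 5.74%, 37.2 ± 6.22% and 40 ± 22.6% in the same order. GADD45G 110536341 and GADD45B 100301708 had their largest mean share in H12h, 15.1 ± 8.39% and 10.5 ± 5.58%, and the GADD45G copy supplied 12.4 ± 7.16% in H24h. GADD45A 110508939 and GADD45A 110524616 had theirs in H24h, 6.3 ± 2.92% and 6.63 ± 3.17%.

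**Figure D1:**
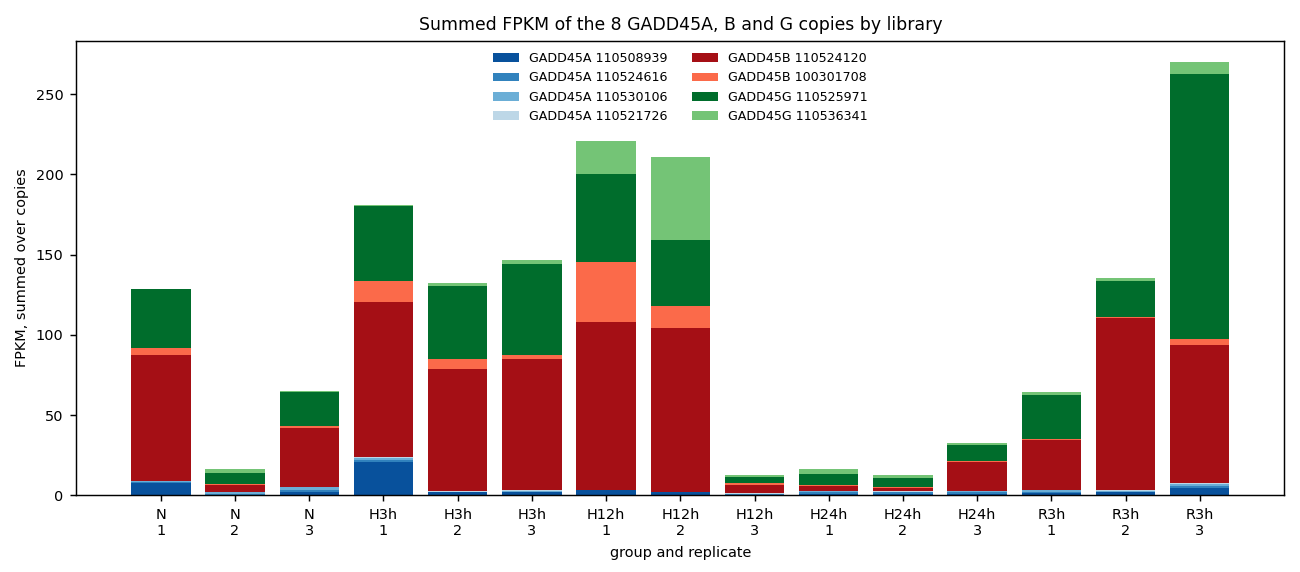
Stacked bars give the FPKM of the 8 GADD45A, GADD45B and GADD45G copies in each of the 15 libraries, coloured by copy. The dark GADD45B and GADD45G copies fill most of each tall bar, the light green GADD45G copy shows mainly in H12h replicates 1 and 2, and the H24h bars stay at or below 32.9 FPKM.

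The test over the 5 groups called 2 of the 9 tested GADD45 genes, 1 GADD45G copy and 1 GADD45B copy, where 7.24% of all genes were called. Both had their highest mean in H12h, and both owed it to replicates 1 and 2 of that group. GADD45G 110536341, on chromosome 11, stood at 0.53, 2.37 and 0.60 FPKM in N, 0.95, 1.48 and 2.36 FPKM in H3h, 20.28, 52.06 and 1.48 FPKM in H12h, 2.84, 1.98 and 1.39 FPKM in H24h and 2.1, 2.31 and 7.17 FPKM in R3h. Outside H12h replicates 1 and 2 it was at 7.17 FPKM or less, and H12h replicate 3 lay within the range of N. It changed over the 5 groups (F = 10, edgeR adjusted p = 0.025).

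GADD45B 100301708, on chromosome 1, had 4.55, 0.56 and 0.89 FPKM in N, 13.06, 6.14 and 1.96 FPKM in H3h, 37.18, 13.60 and 1.06 FPKM in H12h, 0.81, 0.62 and 0.61 FPKM in H24h and 0.38, 0.98 and 3.64 FPKM in R3h. The 3 H24h libraries sat below every H3h and every H12h library. It changed over the 5 groups as well (F = 7.05, edgeR adjusted p = 0.043). Its mean was 17.3 ± 18.3 FPKM in H12h, 7.05 ± 5.61 in H3h, 2 ± 2.21 in N, 1.67 ± 1.74 in R3h and 0.68 ± 0.113 in H24h (SD, n = 3 each), and neighbours in that order overlapped. Neither call was firm. Both were lost on the FPKM scale with limma (adjusted p = 0.0844 for the GADD45G copy and 0.106 for the GADD45B copy), which called 11.6% of all genes. Leaving out N replicate 3, H3h replicate 1 or 2, H12h replicate 1 or 2, or H24h replicate 2 also ended both. The adjusted p was then 0.0546 to 0.111 for the GADD45G copy and 0.0744 to 0.165 for the GADD45B copy. Calls fell over all genes in these fits, to 1.14 to 2.78%, against 7.24% with every library. The GADD45B call ended too without H3h replicate 3, H24h replicate 1, H24h replicate 3 or R3h replicate 1 (0.0609 to 0.0861, with 2.46 to 3.75% of all genes called). Without R3h replicate 3 both stayed called (0.0153 and 0.0215, with 15.3% of all genes called).

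The other 7 tested members were not called over the 5 groups, with edgeR adjusted p between 0.0924 and 0.395. In all, 7 of the 9 had an unadjusted p under 0.05, against 29% of all genes. Of these 7, the Gadd45gip1 pair and GADD45B 110524120 lost it without R3h replicate 3 (edgeR unadjusted p = 0.633, 0.184 and 0.0591). The main GADD45B copy, 110524120, is the most abundant GADD45 gene of this liver. It held 78.11, 4.47 and 36.80 FPKM in N, 96.45, 76.11 and 82.08 FPKM in H3h, 104.71, 101.91 and 5.06 FPKM in H12h, 2.97, 2.45 and 18.25 FPKM in H24h and 31.32, 107.13 and 86.20 FPKM in R3h. The H3h libraries were uniformly high and the H24h libraries low, with no overlap between them, while N replicate 2 and H12h replicate 3 were as low as H24h.

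The main GADD45G copy, 110525971, went with it. It held 36.58, 6.82 and 21.22 FPKM in N, 46.66, 45.93 and 57.16 FPKM in H3h, 54.91, 41.13 and 4.03 FPKM in H12h, 6.55, 5.26 and 9.87 FPKM in H24h and 27.46, 22.08 and 165.12 FPKM in R3h. Again N replicate 2 and H12h replicate 3 lay at or below the level of H24h, and R3h replicate 3 held the highest value of all libraries. Its mean was 71.6 ± 81.1 FPKM in R3h, 49.9 ± 6.28 in H3h, 33.4 ± 26.3 in H12h, 21.5 ± 14.9 in N and 7.23 ± 2.38 in H24h, with overlap between neighbours.

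The GADD45A copies were rarer, and their patterns differed from each other. GADD45A 110508939, the most abundant of them, stood at 7.45, 0.44 and 2.02 FPKM in N, 21.08, 1.86 and 2.26 FPKM in H3h, 3.15, 1.88 and 0.46 FPKM in H12h, 1.13, 1.13 and 1.02 FPKM in H24h and 1.77, 2 and 4.79 FPKM in R3h. Its high mean in H3h, 8.4 ± 11 FPKM, came from replicate 1. GADD45A 110524616 stood at 0.96, 0.51 and 1.49 FPKM in N, 1, 0.27 and 0.17 FPKM in H3h, 0.13, 0 and 0.50 FPKM in H12h, 1.29, 1.14 and 0.99 FPKM in H24h and 0.18, 0.25 and 1.27 FPKM in R3h. Unlike the B and G copies, it had its highest mean in H24h and its lowest in H12h.

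GADD45A 110530106 had 0.52, 1.08 and 1.62 FPKM in N, 1.37, 0.15 and 0.49 FPKM in H3h, 0.04, 0 and 0.14 FPKM in H12h, 0.50, 0.08 and 0.51 FPKM in H24h and 1.34, 0.82 and 1.07 FPKM in R3h. In H12h this came to 4, 0 and 14 counts, against 34, 92 and 146 counts in N, so the H12h libraries lay below all N libraries. The 0 in H12h replicate 2 allows a level of up to 0.0643 CPM (counts scaled to a common library size) at 3 counts, which covers counting error only. GADD45A 110521726, too low to test, ranged from 0.09 to 0.63 FPKM and had its highest mean in H3h (0.417 ± 0.185 FPKM).

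The Gadd45gip1 pair, whose protein is mitochondrial in mammals, stood highest in R3h replicate 3. Gadd45gip1 110486476 stood at 11.61, 10.95 and 10.94 FPKM in N, 10.86, 7.63 and 13.39 FPKM in H3h, 8.31, 8.80 and 9.33 FPKM in H12h, 8.86, 8.92 and 9.78 FPKM in H24h and 9.13, 10.73 and 39.85 FPKM in R3h. Gadd45gip1 110538313 stood at 4.27, 3.05 and 4.29 FPKM in N, 3.30, 2.38 and 2.97 FPKM in H3h, 1.15, 1.42 and 3.06 FPKM in H12h, 2.76, 2.60 and 4.53 FPKM in H24h and 4.32, 2.60 and 13.86 FPKM in R3h. Gadd45gip1 110538313 was also low in H12h replicates 1 and 2, below every N library. The adjusted p over the 5 groups was 0.163 and 0.0953 for the pair, and 0.714 and 0.311 without that library.

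**Figure D2:**
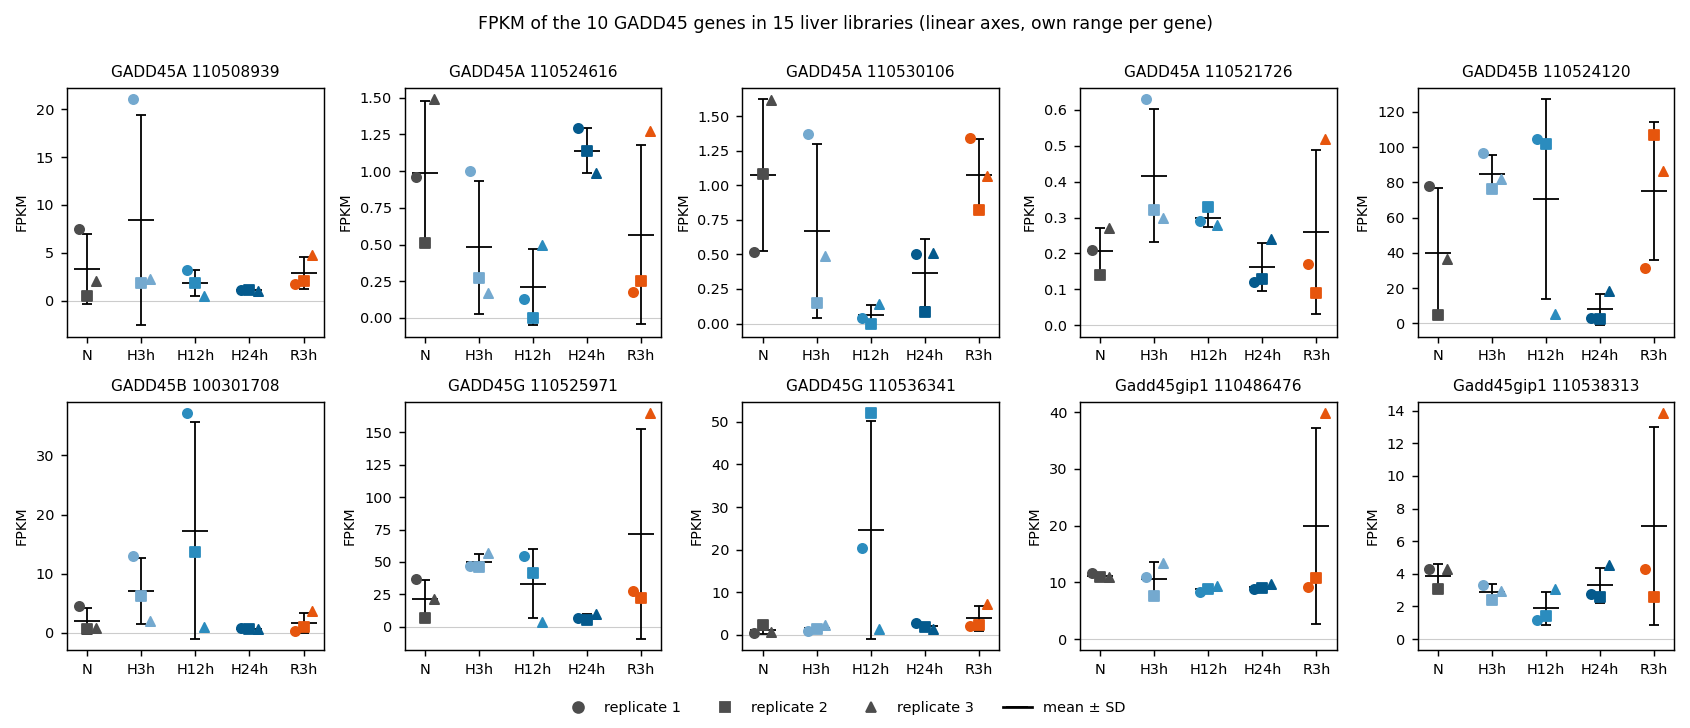
Each panel plots the FPKM of 1 of the 10 GADD45 genes (linear axis, own range) in the 15 libraries by group, with circles, squares and triangles for replicates 1, 2 and 3 and bars for the mean ± SD of 3. GADD45G 110536341 and GADD45B 100301708 are high in replicates 1 and 2 of H12h, GADD45A 110530106 is near 0 there, and both Gadd45gip1 panels have their highest point in R3h replicate 3.

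Against N, no single GADD45 gene passed the test in any group. In H12h against N, which asked what the middle H time changed, 0 of 9 were called by edgeR and 0 by limma on log2(FPKM + 1), against 0.223% of all genes for edgeR and 0.137% for limma, and DESeq2 called 3, against 4.73% of all genes. Unadjusted, 3 had a p under 0.05, against 14.3% of all genes, and these 3 pointed opposite ways. GADD45G 110536341 averaged 24.6 ± 25.6 FPKM in H12h and 1.17 ± 1.04 in N (SD, n = 3 each), a log2 fold change of 4.9 ± 1.14 (± SE, edgeR adjusted p = 0.078). GADD45B 100301708 differed by 3.8 ± 1.16 (adjusted p = 0.16). GADD45A 110530106 averaged 0.06 ± 0.0721 FPKM in H12h and 1.07 ± 0.55 in N, a log2 fold change of -3.59 ± 0.99 (adjusted p = 0.126), and it was lower in 3 of 3 H12h libraries.

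The sizes moved with single libraries. Over the fits that left out a library, the log2 fold change ran from 3.59 without H12h replicate 2 to 6.21 without N replicate 2 for GADD45G 110536341. It ran from 2.66 without H12h replicate 1 to 5.11 without N replicate 1 for GADD45B 100301708, and from -4.82 without H12h replicate 3 to -3.1 without H12h replicate 2 for GADD45A 110530106. Without H12h replicate 3, GADD45G 110536341 rose by 5.46 ± 0.89 (edgeR adjusted p = 0.00757) and GADD45B 100301708 by 4.36 ± 0.99 (adjusted p = 0.0339), while GADD45A 110530106 stood at -4.82 ± 1.24 (adjusted p = 0.0537), with 3.12% of all genes called in that fit. Without R3h replicate 3, the GADD45G copy was also called, at 4.94 ± 1.11 (adjusted p = 0.0437, 1.81% of all genes called). The major copies differed less in H12h. GADD45B 110524120 averaged 70.6 ± 56.7 FPKM in H12h and 39.8 ± 36.9 in N (1.57 ± 1.02, adjusted p = 0.501), and GADD45G 110525971 differed by 1.33 ± 0.86 (adjusted p = 0.502). Without H12h replicate 3 these differences were 2.13 ± 0.87 and 1.87 ± 0.73 (edgeR adjusted p = 0.204 and 0.187). GADD45A 110524616 also lay lower by FPKM in every H12h library than in any N library (-1.75 ± 1.03, adjusted p = 0.452). This gap was minimal, with at most 0.5 FPKM in H12h and at least 0.51 in N. Libraries did not overlap in 3 members, all lower in H12h by FPKM, against 28% of all genes lower in this way and 3.71% higher. The third was Gadd45gip1 110486476, which by FPKM averaged 8.81 ± 0.51 in H12h and 11.2 ± 0.384 in N, while its fitted log2 fold change was 0.17 ± 0.45.

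That gap between scales is general. Overlap of a gene's libraries was judged by FPKM, without TMM scaling. The median over all genes of the difference in mean log2(FPKM + 1) from N was -0.35 in H12h, -0.22 in H24h and -0.29 in R3h, while with TMM scaling the median fold change was -0.07, -0.05 and -0.04. A member's direction flips between the scales where its change is small, as for both Gadd45gip1 copies in H24h and for GADD45B 100301708 in R3h.

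In H3h against N, the shortest H time, edgeR called 0 members, 0% of all genes, and no member reached an unadjusted p of 0.05, against 2.19% of all genes. DESeq2 also called 0 members, against 0.08% of all genes, and limma on log2(FPKM + 1) called 0, against 0.00571%. The largest difference was that of GADD45B 100301708, which averaged 7.05 ± 5.61 FPKM in H3h and 2 ± 2.21 in N (1.82 ± 1.08, adjusted p = 1). GADD45G 110525971 averaged 49.9 ± 6.28 FPKM in H3h and 21.5 ± 14.9 in N (1.27 ± 0.86). It was the only member whose libraries did not overlap, higher in 3 of 3, against 2.94% of all genes that were higher in this way and 3.74% that were lower.

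In H24h against N, the longest H time, edgeR called 0 members, against 0.2% of all genes, and 0 had an unadjusted p under 0.05, against 19.7% of all genes. DESeq2 called 0 members, against 7.2% of all genes, and limma on log2(FPKM + 1) called 0, against 0.28%. GADD45B 110524120 averaged 7.89 ± 8.98 FPKM in H24h and 39.8 ± 36.9 in N (-2.03 ± 1.03, adjusted p = 0.295), with N replicate 2 inside the H24h range. GADD45G 110525971 averaged 7.23 ± 2.38 FPKM in H24h and 21.5 ± 14.9 in N (-1.2 ± 0.86, adjusted p = 0.453). The libraries of 2 members did not overlap, GADD45A 110530106 and Gadd45gip1 110486476, both lower by FPKM, against 19.4% of all genes lower and 8.08% higher. For GADD45A 110530106 the gap was minimal, with at most 0.51 FPKM in H24h and at least 0.52 in N. Its fitted value was -1.37 ± 0.88 (edgeR adjusted p = 0.404).

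In R3h against N, edgeR called 0 members, against 5.34% of all genes, limma on log2(FPKM + 1) called 0, against 10.8%, and DESeq2 called 1, GADD45G 110525971, against 15.9%. Unadjusted, 3 members had a p under 0.05, against 26.6% of all genes. GADD45G 110525971 averaged 71.6 ± 81.1 FPKM in R3h and 21.5 ± 14.9 in N (2.2 ± 0.88, adjusted p = 0.137). The Gadd45gip1 copies differed by 1.19 ± 0.46 (adjusted p = 0.121) and 1.24 ± 0.51 (adjusted p = 0.145). These differences rested on R3h replicate 3, and without it they were 0.74 ± 0.77, 0.23 ± 0.28 and 0.31 ± 0.39 (adjusted p = 0.545, 0.607 and 0.619). No member's R3h and N libraries lay apart, against 6.93% of all genes higher and 21.6% lower.

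**Figure D3:**
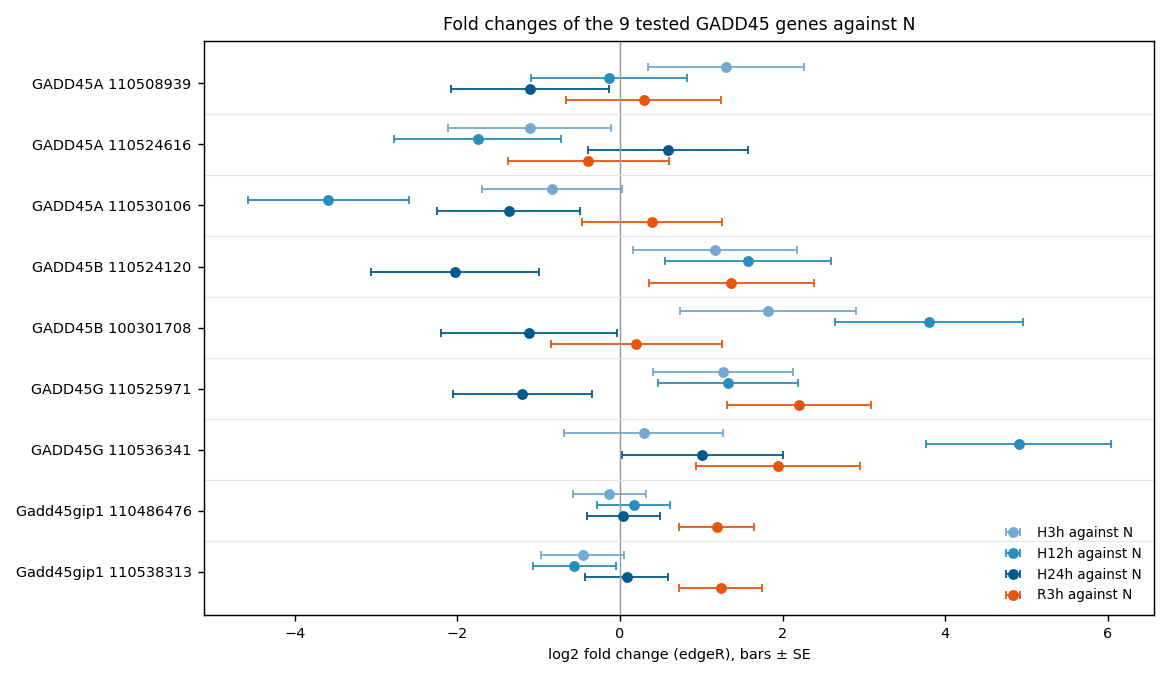
Points give the edgeR log2 fold change against N of the 9 tested GADD45 genes in H3h, H12h, H24h and R3h, with bars of ± SE. In H12h GADD45G 110536341 (4.9) and GADD45B 100301708 (3.8) lie far to the right and GADD45A 110530106 (-3.59) far to the left, while the Gadd45gip1 copies stay between -0.56 and 1.24.

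The comparison of R3h with H24h asked what differed between the R time and the longest H time. EdgeR and limma each called 0 members and 0% of all genes, and DESeq2 called 1, GADD45G 110525971, against 0.291% of all genes. The main copies showed the widest gaps. GADD45B 110524120 averaged 74.9 ± 39.2 FPKM in R3h and 7.89 ± 8.98 in H24h (3.4 ± 1.09, adjusted p = 0.67), and the value was 4.7 without H24h replicate 3 and 3.01 without H24h replicate 1. GADD45G 110525971 averaged 71.6 ± 81.1 FPKM in R3h and 7.23 ± 2.38 in H24h (3.4 ± 0.93, adjusted p = 0.665), and 1.91 ± 0.78 without R3h replicate 3 (adjusted p = 0.918). Unadjusted, 4 members had a p under 0.05, against 7.36% of all genes, namely these main copies and the Gadd45gip1 pair. The pair differed by 1.15 ± 0.46 and 1.16 ± 0.51 (edgeR adjusted p = 0.67 each). Without R3h replicate 3 the pair differed by only 0.16 ± 0.28 and 0.21 ± 0.39. By FPKM, every R3h library was above every H24h library in 4 members, which were not the same 4. They were GADD45B 110524120, GADD45G 110525971, GADD45A 110508939 and GADD45A 110530106, against 2.17% of all genes. No member was lower in this way, against 4.34%.

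H24h was also set against the earlier H times, as comparisons chosen after the values were seen. In H24h against H3h, edgeR called 0 members, against 4.47% of all genes, limma called 1, GADD45B 110524120, against 9.34%, and DESeq2 called 3, against 16.5%. GADD45B 110524120 averaged 7.89 ± 8.98 FPKM in H24h and 84.9 ± 10.5 in H3h (-3.19 ± 1.08, edgeR adjusted p = 0.0867), with -4.49 without H24h replicate 3. GADD45B 100301708 differed by -2.94 ± 1.13 (adjusted p = 0.12), GADD45G 110525971 by -2.47 ± 0.89 (adjusted p = 0.103) and GADD45A 110508939 by -2.41 ± 1 (adjusted p = 0.146). All 4 were lower in H24h with no overlap, against 28.9% of all genes lower and 10.6% higher, and these were the 4 with an unadjusted p under 0.05, against 26.8% of all genes. The value of GADD45A 110508939 was -0.57 without H3h replicate 1. Without R3h replicate 3, GADD45G 110525971 fell by 2.44 on the log2 scale (called, with 17% of all genes called in that fit). Fitted on H24h and H3h alone, edgeR called GADD45B 110524120, GADD45B 100301708 and GADD45G 110525971, and 18.5% of all genes.

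In H24h against H12h, edgeR called 0 members and 0% of all genes. Limma called 0 members, against 0.0571% of all genes, and DESeq2 called 4, against 4.59%. Unadjusted, 6 members had a p under 0.05, against 14.5% of all genes, and they pointed opposite ways. GADD45B 100301708 differed by -4.92 ± 1.23 (edgeR adjusted p = 0.116), GADD45G 110536341 by -3.89 ± 1.08 (adjusted p = 0.135), GADD45B 110524120 by -3.6 ± 1.1 (adjusted p = 0.163; -4.9 without H24h replicate 3) and GADD45G 110525971 by -2.53 ± 0.9 (adjusted p = 0.224). GADD45A 110524616 differed by 2.34 ± 1.04 (adjusted p = 0.325) and GADD45A 110530106 by 2.22 ± 0.96 (adjusted p = 0.31). GADD45A 110524616 was higher and GADD45B 100301708 lower in 3 of 3 H24h libraries, against 15.1% of all genes higher and 6.74% lower. Without H12h replicate 3, edgeR called 3 members lower in H24h, GADD45B 100301708 (-5.48 ± 1.04, adjusted p = 0.0193), GADD45G 110536341 (-4.45 ± 0.85, adjusted p = 0.0199) and GADD45B 110524120 (-4.16 ± 0.93, adjusted p = 0.036), with 2.25% of all genes called.

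Whether copies of a name moved apart was asked within each library, by the log2 ratio of their CPM. A scaling factor drops out of this ratio except through the prior count of 2 added to each copy, which weighs most at low counts. In all, 9 ratios in 4 groups against N gave 36 exact two-sided permutation tests. With 3 libraries against 3 the smallest possible p is 0.1, so none could pass, and 6 reached it (lowest adjusted p = 0.47). With no difference between groups, a share of about 0.1 of such tests would reach it. The ratios also share copies and the N libraries, so the tests are not independent. The ratio of GADD45G 110536341 to GADD45G 110525971 was -1.39, 0.39 and -1.38 in H12h, against -5.98, -1.46 and -5.00 in N. The H12h libraries lay above all N libraries, though N replicate 2 came close to them, and the means were -0.79 ± 1.02 in H12h and -4.15 ± 2.38 in N (SD, n = 3 each; a difference of 3.35, exact p = 0.1). In H12h replicate 3 both copies were low in level, yet their ratio was like that of H12h replicate 1. In H24h the ratio was -1.15, -1.35 and -2.76, overlapping N.

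For the GADD45B pair, too, the minor copy stood higher relative to the main copy in every H12h library than in any N library. The ratio of GADD45B 100301708 to GADD45B 110524120 was -1.57, -2.98 and -2.30 in H12h, against -4.17, -3.01 and -5.39 in N. The gap was narrow, with means of -2.29 ± 0.71 in H12h and -4.19 ± 1.19 in N (a difference of 1.9, exact p = 0.1). In R3h the ratio was -6.36, -6.80 and -4.63, which overlapped N. Between GADD45A copies, the ratio of 110530106 to 110524616 had means of -1.91 ± 1.39 in H24h and 0.1 ± 0.94 in N (a difference of -2.01, exact p = 0.1). The values were -1.32, -3.5 and -0.92 in H24h, against -0.85, 1.03 and 0.11 in N, so the gap was narrow. Both copies were rare, with means of 0.649 and 0.677 FPKM over all libraries.

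Between isoforms, sums were taken over the tested copies, which leaves out GADD45A 110521726. The ratio of the summed GADD45G to the summed GADD45A copies was, on the log2 scale, 4.41, 5.55 and 2.18 in H12h and 3.06, 2.88 and 4.49 in R3h, against 1.96, 2.06 and 1.98 in N (differences of 2.04 and 1.48, exact p = 0.1 each). Both groups lay above all N libraries. With the untested copy added, a setting chosen after seeing the data, the ratio was 4.18, 5.12 and 1.62 in H12h, against 1.89, 1.88 and 1.84 in N, so that these groups overlapped (exact p = 0.4). R3h stayed above N with it, at 2.92, 2.80 and 4.30 (exact p = 0.1), and H24h lay below N, at 1.48, 1.37 and 1.79 (exact p = 0.1). The GADD45B sum over the GADD45A sum differed by 1.56 in R3h against N over tested copies (exact p = 0.1) and by 1.55 with the untested copy, where the groups overlapped (exact p = 0.2). With the copies of a name added up, since copies can share reads, H12h against N gave 2.08 ± 0.88 for GADD45G (edgeR adjusted p = 0.301), 1.8 ± 1 for GADD45B (0.427), -0.47 ± 0.67 for GADD45A (0.796) and 0.02 ± 0.44 for Gadd45gip1 (0.988), none called.

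**Figure D4:**
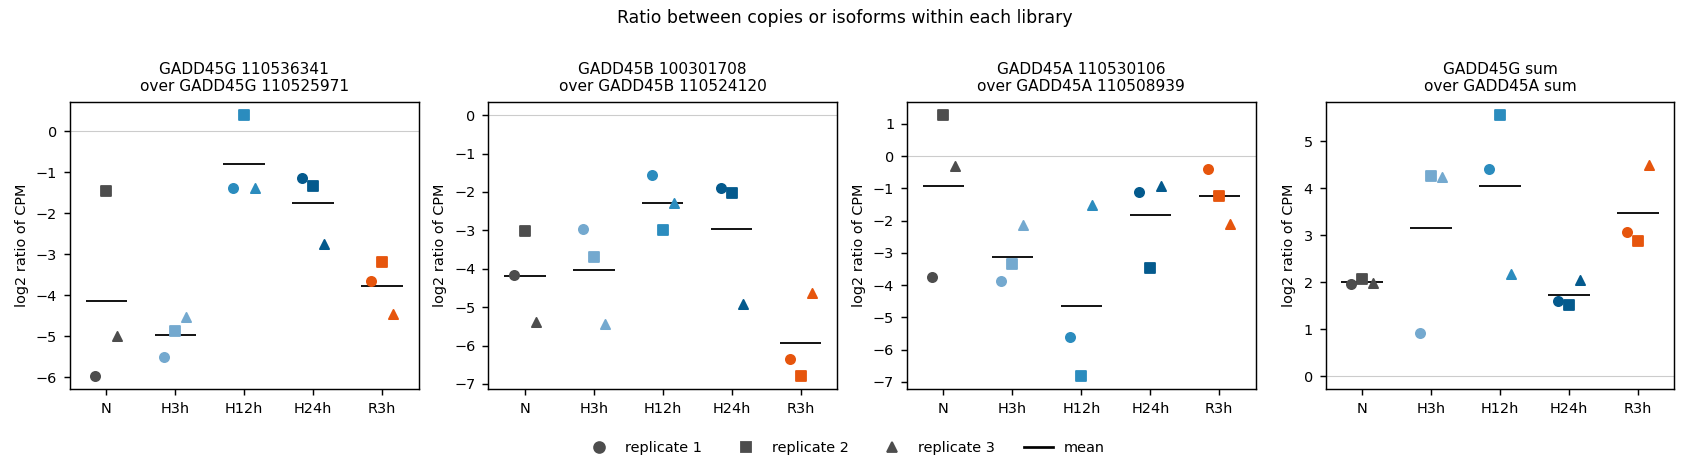
Each panel plots a log2 ratio of CPM within each of the 15 libraries by group, with circles, squares and triangles for replicates 1, 2 and 3 and a line for the mean of 3. The ratio of the minor to the main GADD45G copy lies between -1.39 and 0.39 in H12h, above all N libraries, and the ratio of summed GADD45G to summed GADD45A, over tested copies, is 1.96 to 2.06 in N.

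Across the 15 libraries the main B and G copies moved most alike. The Pearson correlation of log2 CPM between GADD45B 110524120 and GADD45G 110525971 was 0.88, and 0.93 without R3h replicate 3. GADD45A 110508939 followed them, at 0.69 with the GADD45B and 0.72 with the GADD45G copy. GADD45A 110530106 stood near 0 with these 3 genes (-0.13, -0.07 and 0.05 with the GADD45B, GADD45G and GADD45A copy), and GADD45A 110524616 at -0.56, -0.4 and -0.07. These 2 GADD45A copies correlated at 0.58 with each other, and at -0.63 (110530106) and -0.64 (110524616) with GADD45G 110536341. The Gadd45gip1 pair correlated at 0.77 over 15 libraries but at 0.1 over the 14 without R3h replicate 3. These values describe 15 libraries that share depth, scaling and group, and carry no p.

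**Figure D5:**
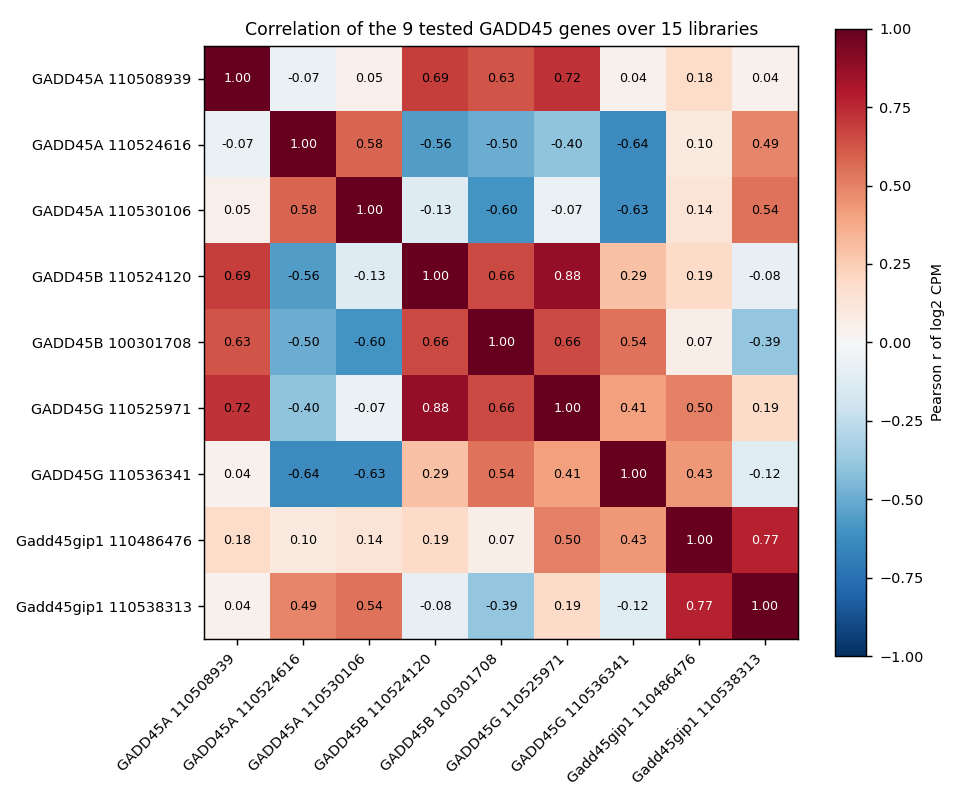
The grid gives the Pearson correlation of log2 CPM between each pair of the 9 tested GADD45 genes over 15 libraries, red for positive and blue for negative. GADD45A 110508939 and the B and G copies other than 110536341 form a red block (0.63 to 0.88), while GADD45A 110524616 and GADD45A 110530106 are blue against GADD45G 110536341 (-0.64 and -0.63).

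Neutrophil markers varied with the main B and G copies in part of the series. Their summed level over 10 genes, of which 6 were above 0 in every library and none at 0 in all, was 327, 10.5 and 99.1 FPKM in N, 133 to 167 FPKM in H3h, 21 to 24.6 FPKM in H12h, 15.3 to 20.3 FPKM in H24h and 10.7 to 35.8 FPKM in R3h. N replicate 1 was highest and N replicate 2 lowest of N for these markers as for GADD45B 110524120. In H12h replicates 1 and 2 and in R3h replicates 2 and 3 that GADD45B copy stood at 86.20 FPKM or more while the markers stood at 35.8 FPKM or less. Erythrocyte markers, 24 genes of which 21 were above 0 in every library, summed to 637 to 2080 FPKM in H24h, where GADD45B 110524120 was low. Their sums were 234 to 508 FPKM in N, 169 to 564 FPKM in H3h, 298 to 878 FPKM in H12h and 331 to 1420 FPKM in R3h. In R3h replicates 2 and 3, where that GADD45B copy was high, they were 1380 and 1420 FPKM. Macrophage markers, 5 genes all above 0, summed to 52.5, 232 and 176 FPKM in N, with N replicate 1 the lowest. The part of these cells in the GADD45 values was not tested.

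For each tested member the 3 named genes with the most similar profile over 15 libraries were listed, as a description. These lists changed without R3h replicate 3. Only 1 of the 3 genes then stayed for GADD45A 110508939, GADD45A 110530106, GADD45G 110525971 and each Gadd45gip1 copy, and 2 or 3 stayed for the other members. GADD45B 100301708 was matched most closely by DDIT3 (110494779), the CHOP transcription factor of endoplasmic reticulum stress, PPP1R15B, a subunit that directs the phosphatase of the translation factor eIF2, and Fosl1, a partner in the AP-1 transcription factor. Each correlated at 0.96, and at 0.97, 0.98 and 0.96 without R3h replicate 3. The mean of PPP1R15B was 3.1 ± 2.61 FPKM for N, 8.36 ± 6.93 for H3h, 16.6 ± 16.2 for H12h, 0.877 ± 0.324 for H24h and 1.29 ± 0.747 for R3h, in the same order of groups as the GADD45B copy. GADD45G 110536341 was matched by chmp4b, a membrane-scission protein (0.96), POLD3, a subunit of DNA polymerase delta (0.95), and Vamp5, a vesicle fusion protein (0.94). The mean of POLD3 was 2.93 ± 0.176 FPKM for N, 4.69 ± 0.73 for H3h, 32.8 ± 24.9 for H12h, 5.46 ± 0.298 for H24h and 6.99 ± 2.62 for R3h.

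GADD45A 110508939 was nearest to the immediate-early gene Ier5 (0.93), the matrix protein gene CTGF (0.86) and NFKBIA, the inhibitor of NF-kappaB (0.84). GADD45B 110524120 was nearest to Fbxw11, a ubiquitin ligase subunit, GADD45G 110525971 and RPP25L (0.88 each), and GADD45G 110525971 to RGS5, a regulator of G protein signalling (0.9), GADD45B 110524120 and brk1-a (0.88 each). GADD45A 110524616 was nearest to Tbl1xr1 (0.9), the zinc exporter SLC30A1 (0.89) and TBC1D12 (0.88), and GADD45A 110530106 to ppdpfb, MET, the hepatocyte growth factor receptor (0.88 each), and hdgfrp2 (0.87). Gadd45gip1 110486476 was nearest to the ribosomal protein genes RPS3 and RPL21 (0.95 each) and NDUFA13 of respiratory complex I (0.94). Its r was 0.78, 0.93 and 0.65 with these genes without R3h replicate 3. Gadd45gip1 110538313 was nearest to LSM7 (0.96), fam136a and ARF4 (0.95 each), at 0.88, 0.88 and 0.9 without that library.

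Genes around the GADD45 proteins were taken from 6 lists, whose counts of called members stand against the 7.24% of all genes called over the 5 groups. Of the MAP kinase branch that GADD45 proteins switch on, 21 genes were tested and 1 was called over the 5 groups. It was mapk14a 110494762, a p38 kinase (adjusted p = 0.0453). Its group means were 5.37 ± 0.45 FPKM for N, 6.46 ± 0.341 for H3h, 6.33 ± 1.71 for H12h, 2.4 ± 0.799 for H24h and 3.38 ± 1.2 for R3h. The other tested mapk14a copies, 110491913 and 110532744, were not called (0.251 and 0.587). MAP2K4, a JNK kinase, was not called (adjusted p = 0.11). No gene of the list was called in H3h, H12h, H24h or R3h against N, where 0, 0.223, 0.2 and 5.34% of all genes were called. The list's median log2 fold change there was -0.12, -0.16, -0.27 and -0.62, against 0, -0.07, -0.05 and -0.04 for all genes.

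Of the cell cycle and repair partners, 18 were tested and 1 was called, ccnb2, a cyclin B (adjusted p = 0.0251). Its means were 0.687 ± 0.162 FPKM for N, 0.73 ± 0.287 for H3h, 4.4 ± 3.74 for H12h, 0.887 ± 0.622 for H24h and 1.39 ± 0.586 for R3h. Of npm1, the nucleolar chaperone that binds GADD45A in mammals, copy 110488895 missed the threshold over the 5 groups (adjusted p = 0.0508). This copy rose in H24h against H3h, to 6.41 ± 0.227 FPKM in H24h, against 3.37 ± 0.261 FPKM in H3h (1.3 ± 0.34, edgeR adjusted p = 0.047). The call was kept in 5 of 15 fits with a library left out, and the other tested npm1 copies were not called there (0.075 to 0.197). The list's median against N was -0.05 for H3h, -0.16 for H12h, 0.34 for H24h and 0.25 for R3h. For all genes it was 0, -0.07, -0.05 and -0.04.

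Among transcription factors known to act on GADD45 genes in mammals, 34 were tested and 4 were called over the 5 groups. These were FOXO4 110504990 (adjusted p = 0.0131), foxo1a (0.0345), Foxo3 (0.0388) and atf4 110494903 (0.045). Another FOXO4 copy, 110488789, was not called (0.0933), nor were the other tested atf4 copies (0.168 to 0.791). The called FOXO genes, which encode stress and insulin-sensitive activators, all had their highest mean in H12h. FOXO4 110504990 rose in H12h against N, with 6.09 ± 3.75 FPKM in H12h and 1.05 ± 0.112 in N (3.12 ± 0.58, edgeR adjusted p = 0.0463). This call was kept in only 3 of 15 fits with a library left out and not by limma on log2(FPKM + 1) (adjusted p = 0.0711). Foxo1a averaged 6.06 ± 1.01 FPKM in H12h and 1.81 ± 0.916 in N (adjusted p = 0.0665), and Foxo3 3.59 ± 0.242 FPKM in H12h and 1.21 ± 0.535 in N (adjusted p = 0.111). Atf4 is the activator of the integrated stress response, and its called copy, 110494903, followed another course. The means of this copy were 20.5 ± 8.13 FPKM for N, 36.4 ± 29 for H3h, 6.7 ± 3.57 for H12h, 6.3 ± 1.88 for H24h and 3.16 ± 0.96 for R3h. Against N the list's median was 0.36 for H3h, -0.24 for H12h, -0.37 for H24h and -0.4 for R3h.

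Of the p53 targets, 19 were tested and 1 was called over the 5 groups, PLK2 110523192, a stress-induced polo kinase (adjusted p = 0.0345). It fell in H24h to 0.59 ± 0.115 FPKM, against 6.77 ± 4.93 FPKM in H3h (-3.09 ± 0.75, edgeR adjusted p = 0.0418), a call kept in 6 of 15 fits with a library left out. The other tested copies, PLK2 110536158 and PLK2 110525781, were not called over the 5 groups (0.101 and 0.211). No p53 target was called in H3h, H12h, H24h or R3h against N, where 0, 0.223, 0.2 and 5.34% of all genes were called.

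Of the stress response genes, 19 were tested and 4 were called over the 5 groups. These were ddit4 110531799, an inhibitor of mTOR signalling (adjusted p = 0.0133), and ASNS 110488144, asparagine synthetase (0.0354). Nupr1 110537923, a stress-induced chromatin protein (0.0404), and atf4 110494903, also among the transcription factors, were called too. Other copies of these genes, ddit4 110530482 (0.0888), ASNS 110496433 (0.587) and NUPR1 110521883 (0.288), were not called. Ddit4 110531799 rose in H12h against N (8.09 ± 1.5, edgeR adjusted p = 0.0459), a call kept in 2 of 15 fits with a library left out and not by limma (adjusted p = 0.0836). Nupr1 110537923 rose in R3h against N (2.88 ± 0.6, edgeR adjusted p = 0.0247), with 3270 ± 2260 FPKM in R3h and 600 ± 295 in N. That call was lost without N replicate 1 or N replicate 3 and kept in the other 13 fits. ASNS 110488144 pointed the other way in R3h, with 1.06 ± 0.651 FPKM, against 4.55 ± 2.81 in N. The log2 fold change was -1.65 ± 0.48, not called (edgeR adjusted p = 0.0585). Its highest mean was 6.27 ± 0.982 FPKM, in H3h. Against N the list's median was 0.64 for H3h, -0.03 for H12h, -0.55 for H24h and -0.05 for R3h, and without R3h replicate 3 that for R3h was -0.76.

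The mitochondrial large ribosomal subunit, to which the Gadd45gip1 protein belongs in mammals, was taken as the last list. Of its 59 tested genes, 6 rose and 1 fell in R3h against N (5.34% of all genes called), and 51 had a positive fold change, with a median of 0.86, against -0.04 for all genes and 48.4% positive. The gene that fell was MRPL19 (-1.74, adjusted p = 0.0372), named here after its value was seen. Without R3h replicate 3, 2 rose and 0 fell, where 6.52% of all genes were called, with a median of 0.64 and 48 positive. Over the 5 groups 6 of 59 were called, MRPL21 (adjusted p = 0.0183), mrpl41 (0.0394), mrpl51 (0.0396) and mrpl54 (0.0404) having the smallest p. Mrpl51 averaged 1.69 ± 0.257 FPKM in R3h and 0.86 ± 0.275 in N, and was not called in R3h against N (edgeR adjusted p = 0.0514). The other named genes were called there, with wider spreads in R3h. They averaged 21.4 ± 17.5 FPKM (MRPL21), 16.8 ± 16.8 (mrpl41) and 27.2 ± 10 (mrpl54) in R3h, against 6.23 ± 0.288, 4.8 ± 0.855 and 13.8 ± 3.11 in N. In H24h against N no gene of this list was called, against 0.2% of all genes, with a median of 0.33 and 45 positive. The Gadd45gip1 copies stood at 0.04 ± 0.45 and 0.08 ± 0.51 in H24h, and in R3h at 1.19 ± 0.46 and 1.24 ± 0.51, neither called. Without R3h replicate 3, where 15.3% of all genes were called over the 5 groups, the 6 lists in the order given had 2, 2, 5, 1, 5 and 6 called members.

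Most calls in these lists turned on single libraries. Of the 16 list genes called over the 5 groups, FOXO4, ddit4 and MRPL21 were called in each of the 15 fits that left out a library. The other 13 lost their call in at least 1 such fit, and all 13 did without N replicate 3, where 199 genes in all were called.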

How the data were processed

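RNA-seq of rainbow trout liver gave 15 libraries, grouped by the labels. The authors deposited raw counts per gene and FPKM, per the file headers. Bowtie2 2.2.8 and TopHat2 2.1.1 are named in the submitters' processing notes. For the build, annotation, counting tool and strand setting, the sources used here give nothing. Libraries held 45.4 to 70.4 M (mega) counts, at least 99% of them in tested genes. Replicates differed by more than counting error.

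Genes were tested if their mean FPKM reached 0.5, with edgeR 4.0.16 (R 4.3.3; TMM, quasi-likelihood, 1 fit of 5 group means, two-sided, Benjamini-Hochberg over 17502 genes within a comparison, adjusted p under 0.05). The fit as a whole gave the F-test and 5 planned contrasts. H24h against H12h and H24h against H3h were added after the values were seen. The SE, an approximation, is the size of the log2 fold change over the root of its F statistic. Ratios between copies used log2 CPM with a prior count of 2 and exact permutation tests. Alternatives used DESeq2 1.42.0 and limma 3.58.1, other filters and scalings, a replicate block, summed copies and leaving out each library. Isoform ratios with the untested GADD45A copy were added after seeing the data.

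Named genes were all 10 members, from each list the 2 tested genes with the smallest p over the 5 groups and any called there, at most 4, and for each tested member the 3 named genes of highest correlation. Genes called in a single contrast followed from these. The members and lists were chosen with earlier results of these data known. The procedure was checked on simulated counts. No sequence is printed, since none was used here.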

Additional observations from a re-analysis of the deposited data

How the results depend on the processing

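Counts of called GADD45 genes are given here with the share of all genes called in brackets. Over the 5 groups the count was 2 as reported (7.24%) and 0 with a replicate block (3.5%). With limma on log2(FPKM + 1) it was 0 with the filter on low values (11.6%) and 0 without it (2.71%). It was 1 with a pseudocount of 0.1 (6.89%), 6 with DESeq2 (25.7%) and 0 to 3 when a library was left out (1.14 to 15.3%). The gene called with a pseudocount of 0.1 was GADD45A 110530106 (limma adjusted p = 0.0481). Both reported calls were lost in that setting (0.102 for GADD45G 110536341 and 0.118 for GADD45B 100301708). In H12h against N, with 0 as reported (0.223%), the count was 1 without the filter on low values (0.283%), 3 with DESeq2 (4.73%) and 0 to 2 when a library was left out (0 to 3.12%). DESeq2 called 1 in R3h against N (15.9%), 1 in R3h against H24h (0.291%), 4 in H24h against H12h (4.59%) and 3 in H24h against H3h (16.5%). In H24h against H3h the count was 3 with those groups fitted alone (18.5%) and 1 with limma on log2(FPKM + 1) (9.34%). Leaving out a library gave 0 to 2 in R3h against N (0.04 to 14%), 0 to 3 in H24h against H12h (0 to 2.25%) and 0 to 1 in H24h against H3h (0 to 17%). DESeq2 called more of all genes too, 4502 against 1267 over the 5 groups, and a replicate block 613. Relative scaling by DESeq2's size factors and edgeR's own filter changed no count. With copies of a name summed, the H24h against H12h value of GADD45A 110524616 and of GADD45A 110530106 was reversed, at -0.11, since the sum then stands for every GADD45A copy. Numbers were not taken to pair libraries, since 8 of 30 same-number correlations were over 0.1 (-0.21 to 0.37), beside 11 of 60 between different numbers (-0.41 to 0.39). In 9 of 15 libraries the best correlation was with their own number, a hint from the data and not the design. With the replicate block the adjusted p was 0.0547 for GADD45G 110536341 and 0.101 for GADD45B 100301708. Log2 fold changes of H12h against N ranged over all settings from 2.08 to 6.21 for GADD45G 110536341, 1.8 to 5.11 for GADD45B 100301708 and -4.82 to -0.47 for GADD45A 110530106, the ends nearest 0 being those of summed copies. The ratio of the GADD45G copies in H12h against N ranged from 2.44 to 4.7. The causes of these differences were not tested. Counts of 0 to 14 limit GADD45A 110530106 in H12h.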
